A study of Mus musculus with 16 samples.

Results

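The 8 genes described here encode carriers that bring amino acids or their relatives across the cell membrane: Slc1a1, Slc1a2, Slc1a3, Slc1a4 and Slc1a5 of the SLC1 family, and Slc6a6, Slc6a9 and Slc6a15 of the SLC6 family. They were taken by symbol from a table of 27179 genes and followed through every group of the study. The 16 libraries hold RNA of mouse embryonic stem (ES) cells, with 2 replicates in each of 8 groups. Cells grown with serum and leukaemia inhibitory factor (LIF) had first been adapted to either of 2 media. One of these, 2i/LIF, had no serum, and the other, serum/LIF+2i, held 10% fetal bovine serum. Both held LIF and 2i, which is 3 uM CHIR99021, a GSK3 inhibitor, with 1 uM PD0325901, a MEK inhibitor. The 0 h groups were collected in these media. The 12, 24 and 40 h groups had been washed and kept without serum, 2i and LIF for those hours, which starts the exit from naive pluripotency. For the serum/LIF+2i cells this medium was a mix of glutamine-free DMEM and Neurobasal with 2 mM glutamine added, whereas the 2i/LIF cells kept their own base medium. Serum history and base medium therefore cannot be told apart in any difference between the media. Every change from 0 h in serum/LIF+2i also includes the removal of serum and the move to that mix. The treatment protocol gives 12 h for 2i/LIF only, although titles name 12 h samples for both media, and the titles were followed. The labels give no cell line or genotype, and nothing in them says that replicates came from separate cultures, so p-values measure only the spread between these libraries. The title of the series concerns how pluripotent cells take in amino acids.

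Carriers of the SLC1 and SLC6 families draw on the sodium gradient that the sodium pump maintains. Within SLC1, one branch concentrates the acidic amino acids glutamate and aspartate in the cell and is best known for clearing glutamate around synapses. The other branch exchanges small neutral amino acids such as alanine, serine, cysteine and glutamine. The SLC6 family is named after its neurotransmitter carriers and also holds carriers for taurine, glycine and branched-chain amino acids. ES cells are known for a high demand for glutamine and for a dependence on threonine, which they break down to glycine.

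Total counts ranged from 5931381 to 11142744 per library, and 3 counts, taken as the floor of detection, corresponded to at most 0.517 CPM (counts scaled to library size). All 8 genes passed the filter on low counts, Slc1a2 only through its 40 h libraries, as did 14288 of the 27179 genes. Pou5f1 and Sox2, which define pluripotent cells, were present in every library, at 635 to 953 and 137 to 422 CPM. The 7 pluripotency markers summed to 2874 to 2956 CPM at 0 h and 961 to 977 CPM at 40 h in 2i/LIF, and to 3227 to 3285 and 902 to 915 CPM in serum/LIF+2i. Markers of primitive endoderm summed to at most 6.39 CPM and those of fibroblasts to at most 10.7 CPM in any library. The summed trophoblast and mesoderm markers were highest at 0 h, at up to 76.4 and 37.2 CPM. Most of the former was Tfap2c, with 0 h means of 62.8 CPM in 2i/LIF and 55.4 CPM in serum/LIF+2i, while Elf5 reached at most 0.213 CPM. Most of the latter was T, at 28.0 and 16.1 CPM. These are bulk samples, in which a change in RNA per cell and a change in the share of cells holding that RNA cannot be told apart.

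By 40 h after withdrawal of 2i and LIF, Slc1a3, Slc1a4, Slc1a5 and Slc6a9 were higher than at 0 h in both media, Slc1a1 and Slc6a6 were lower, and Slc6a15 rose briefly and then fell. Slc1a2 had counts mainly in the 40 h libraries that let it pass the filter, so it is described by its counts and left out of the numbers of members called, which are over the 7 others. In 2i/LIF, edgeR's quasi-likelihood test called 5 of these 7 genes within 12 h, 7 by 24 h and 6 by 40 h, where a call means an adjusted p under 0.05. The background share of all tested genes called in the same comparisons was 44.7%, 58.8% and 68.8%. In serum/LIF+2i it called 6, 7 and 7 of the 7, against 51.2%, 64.4% and 70.5% of all genes. At 40 h in 2i/LIF 4 members were higher and 2 lower, where 34.1% of all genes were higher and 34.7% lower. In serum/LIF+2i at 40 h 4 were higher and 3 lower, where each direction held 35.3% of all genes. With 7 genes and shares this high, the counts are not read as particular to the members. Over the 7 members the median log2 fold change at 40 h was 0.16 with 2i/LIF and 0.51 with serum/LIF+2i, beside medians of 0.01 and 0.00 over all genes tested. With Slc1a2 added at its fitted value, or at the ratio or bound given by its counts, the medians were 0.70 and 1.37. No weight is put on these 40 h medians, since Slc1a2 passed the filter through the 40 h libraries in which it was high.

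**Figure D1:**
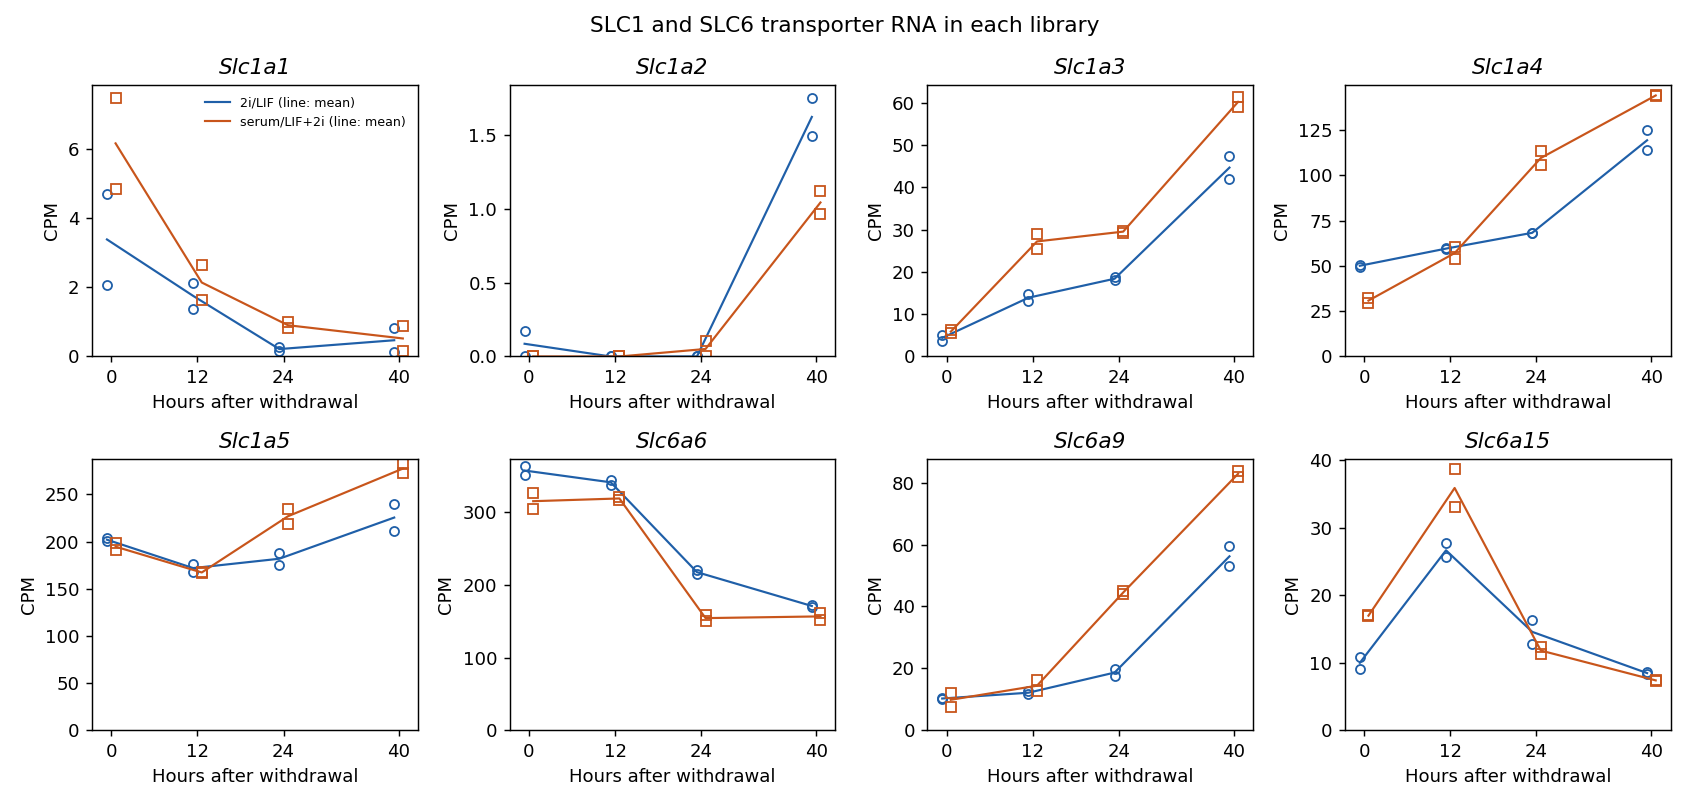
CPM of the 8 transporter genes in each library (blue circles, 2i/LIF; red squares, serum/LIF+2i) against hours after withdrawal of 2i and LIF; lines join the means of 2 libraries, and each panel has its own linear axis from 0. Slc1a3, Slc1a4 and Slc6a9 climb in both media, Slc1a1 and Slc6a6 fall, and Slc6a15 peaks at 12 h, at 26.7 and 35.9 CPM.

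Slc1a3 (Entrez 20512; GRCm38 chr15:8634124-8710807) encodes the glutamate and aspartate carrier GLAST, and its 40 h rise was the largest of the 7 members other than Slc1a2 in either medium. The 2i/LIF libraries held 3.62 and 5.16 CPM at 0 h, 14.7 and 13.1 at 12 h, 18.05 and 18.7 at 24 h, and 41.8 and 47.4 at 40 h. Those of serum/LIF+2i held 5.44 and 6.32 CPM, then 25.4 and 29.0, 29.8 and 29.2, and 61.3 and 59.0. Every later library lay above both 0 h libraries of its medium. The log2 fold change from 0 to 40 h was 3.32 ± 0.16 (SE) in 2i/LIF (adjusted p = 2.47e-40) and 3.35 ± 0.13 in serum/LIF+2i (adjusted p = 1.76e-48), about 10.0-fold and 10.2-fold. In serum/LIF+2i the gene rose by 2.22 ± 0.16 on the log2 scale within 12 h, and the step from 12 to 24 h, 0.11 ± 0.10, was not called (adjusted p = 0.394). In 2i/LIF that step was 0.40 ± 0.14 (adjusted p = 0.0182), a call lost without either 24 h library, without replicate 2 at 12 h (0.32, adjusted p = 0.161) and with DESeq2 (adjusted p = 0.0731). The last step, from 24 to 40 h, was a rise in both media, of 1.28 ± 0.11 and 1.03 ± 0.08.

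Slc1a3 is also a known marker of radial glia and astrocytes, so the neural and glial markers are set beside it. These 5 markers summed to 0.911 to 1.72 CPM at 0 h and 28.1 to 34.1 CPM at 40 h in 2i/LIF. The sums in serum/LIF+2i were 3.97 to 5.14 and 52.2 to 58.3 CPM. Sox1, an early neural transcription factor, ranged from 0.456 to 49.9 CPM over the 16 libraries, with means of 22.6 and 47.2 CPM at 40 h. Pax6, a marker of radial glia, was at 0.238 ± 0.093 CPM (SD, n = 2) at 0 h in 2i/LIF, then at 9.66 ± 1.84 at 12 h, 9.81 ± 1.84 at 24 h and 6.68 ± 0.997 at 40 h. With serum/LIF+2i its means were 0.073, 5.64, 6.04 and 5.75 CPM. The astrocyte marker Gfap reached at most 1.29 CPM and Aqp4 at most 0.125 CPM, with Aqp4 at 0 in 7 of the 8 groups. The part of such cells in the rise of Slc1a3 was not tested.

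Slc1a1 (Entrez 20510; GRCm38 chr19:28835135-28913960) encodes the glutamate, aspartate and cysteine carrier known as EAAT3, and it fell from a low level. Its counts in 2i/LIF were 12 and 31 at 0 h, 10 and 16 at 12 h, 2 and 1 at 24 h, and 1 and 6 at 40 h, which is 3.39 ± 1.87 CPM (SD, n = 2) at 0 h and 0.470 ± 0.488 at 40 h. The serum/LIF+2i counts were 51 and 33, then 12 and 25, 9 and 8, and 2 and 9, or 6.17 ± 1.87 CPM at 0 h and 0.522 ± 0.494 at 40 h. In both media the libraries of 24 and 40 h all lay below those of 0 h. By edgeR the log2 fold change at 40 h was -2.88 ± 0.55 in 2i/LIF (adjusted p = 3.29e-06) and -3.58 ± 0.42 in serum/LIF+2i (adjusted p = 2.17e-12). The former was -4.61 when its 40 h replicate 2 was left out. At 24 h in 2i/LIF, where 3 counts remained against 43 at 0 h, the ratio of counts per total was 16-fold lower with a 95% counting interval of 5.11 to 80.4. The early fall in 2i/LIF was marginal at 12 h, at -0.97 ± 0.42 (adjusted p = 0.0489). It was lost without replicate 2 at 0 h (-0.21, adjusted p = 0.813), without replicate 1 at 12 h (-0.69, adjusted p = 0.279), with DESeq2 (adjusted p = 0.208) and in 7 other alternatives whose adjusted p ran from 0.0502 to 0.059. The fall within 12 h in serum/LIF+2i was -1.48 ± 0.33 (adjusted p = 8.92e-05). The gene overlaps 4430402I18Rik on the other strand, which reached at most 0.517 CPM.

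Slc1a2 (Entrez 20511; GRCm38 chr2:102658239-102790784), the main glutamate carrier of astrocytes, was above the floor at the last time. Each 40 h library had counts, 14 and 11 for 2i/LIF and 13 and 10 for serum/LIF+2i, against 1 count in all 6 earlier libraries of 2i/LIF together and 1 in the 6 of serum/LIF+2i. At 40 h this was 1.62 ± 0.18 CPM in 2i/LIF and 1.04 ± 0.11 CPM in serum/LIF+2i (SD, n = 2). The 25 counts at 40 h against 1 at 0 h gave a 20.2-fold ratio in 2i/LIF, which rests on that 1 count. In serum/LIF+2i the 23 counts against 0 made the gene at least 4.76-fold higher, taking 3 counts over the 0 h group as the floor. No test of this rise is given, since the gene passed the filter through these 40 h libraries. The medium difference at 40 h was not called (log2 -0.63 ± 0.48, adjusted p = 0.355). At 12 and 24 h its summed counts were at or under that floor, so nothing can be said of its change there. Per gene length, its 40 h level of 0.135 ± 0.015 RPKM (CPM per kilobase of gene length) in 2i/LIF stood against 10.6 ± 0.940 RPKM for Slc1a3.

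Slc1a4 (Entrez 55963; GRCm38 chr11:20302180-20332713) encodes ASCT1, an exchanger of alanine, serine, cysteine and threonine, and it rose in both media but earlier in serum/LIF+2i. The 2i/LIF libraries held 49.5 and 50.7 CPM at 0 h, 59.9 and 59.2 at 12 h, 68.2 and 68.4 at 24 h, and 114 and 125 at 40 h. The serum/LIF+2i libraries started lower, at 29.7 and 32.0 CPM, and then held 53.8 and 60.4, 106 and 114, and 144 and 144 CPM. The media therefore crossed: serum/LIF+2i lay below 2i/LIF in both libraries at 0 h, overlapped it at 12 h and lay above it from 24 h on. The medium difference (serum/LIF+2i over 2i/LIF) was -0.70 ± 0.09 at 0 h (adjusted p = 3.64e-10), -0.05 ± 0.07 at 12 h (adjusted p = 0.627), 0.68 ± 0.06 at 24 h (adjusted p = 2.4e-17) and 0.27 ± 0.05 at 40 h (adjusted p = 1.48e-05). From 0 to 40 h Slc1a4 rose 2.38-fold in 2i/LIF (log2 1.25 ± 0.07) and 4.67-fold in serum/LIF+2i (log2 2.22 ± 0.07). The difference between these responses was itself called at every time, at 0.65 ± 0.12, 1.38 ± 0.11 and 0.97 ± 0.11 for 12, 24 and 40 h (adjusted p = 2.01e-05, 4.1e-20 and 3.19e-13). Most of the rise in 2i/LIF came in the step from 24 to 40 h (0.80 ± 0.06), whereas in serum/LIF+2i the step from 12 to 24 h was 0.93 ± 0.06 and the next 0.39 ± 0.05. The smaller step from 12 to 24 h in 2i/LIF, 0.20 ± 0.07 (adjusted p = 0.0271), was lost without any 1 of its 4 libraries, at 0.19 to 0.21, and with DESeq2 (adjusted p = 0.123).

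The start of Slc1a4 is shown because it is the member start where a motif of the amino acid response was found. The motif searched, TGATGNAA on either strand, is the core of the element bound by ATF4, the transcription factor that activates genes when amino acids run short. RefSeq windows of GRCm38.p6 from 250 bases before to 50 after the start were at hand for 5 of the 8 members (Slc1a1, Slc1a2, Slc1a3, Slc1a4 and Slc6a9). Only Slc1a4 among these 5 held a match, on the other strand and beginning at position -4, counted from the annotated start as 0. Of all 32851 such windows 3.97% held a match, or 4.51% of 27025 genes. The stretch below is chr11:20332684-20332833 on the minus strand, from 120 bases before the start to 30 after it, with the match in capitals.
Slc1a4: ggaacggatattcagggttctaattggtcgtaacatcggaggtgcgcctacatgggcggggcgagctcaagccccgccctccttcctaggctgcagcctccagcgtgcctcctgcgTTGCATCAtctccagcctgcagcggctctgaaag

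Slc1a5 (Entrez 20514; GRCm38 chr7:16781334-16798274) encodes ASCT2, the exchanger through which many proliferating cells take up glutamine, and it changed least of the called members at 40 h. The 2i/LIF libraries held 204 and 200 CPM at 0 h, 167 and 176 at 12 h, 175 and 188 at 24 h, and 211 and 240 at 40 h. The serum/LIF+2i libraries held 191 and 199 CPM, then 167 and 167, 235 and 219, and 282 and 273. In both media it dipped at 12 h, by 0.23 ± 0.05 in 2i/LIF and by 0.22 ± 0.05 in serum/LIF+2i on the log2 scale (adjusted p = 4.58e-05 and 7.62e-05). It then exceeded its starting level by 24 h in serum/LIF+2i (0.22 ± 0.05, adjusted p = 2.11e-05), reaching 0.51 ± 0.05 at 40 h (adjusted p = 5.76e-19). In 2i/LIF its log2 fold change at 24 h was -0.15 ± 0.05 (adjusted p = 0.00606), a call lost without replicate 1 at 24 h (-0.09, adjusted p = 0.204) or replicate 1 at 0 h (-0.13, adjusted p = 0.0819). The rise at 40 h in 2i/LIF, 0.16 ± 0.05 (adjusted p = 0.00264), was 0.08 without replicate 2 at 40 h (adjusted p = 0.174) and 0.27 without replicate 1. The media were close at 0 and 12 h (-0.05 ± 0.05 and -0.04 ± 0.05, neither called, with 95% intervals of -0.15 to 0.05 and -0.14 to 0.06), and serum/LIF+2i was higher by 0.32 ± 0.05 at 24 h and 0.30 ± 0.04 at 40 h. The responses of the media differed by 0.37 ± 0.07 at 24 h and 0.35 ± 0.07 at 40 h (adjusted p = 7.81e-06 and 8.83e-06).

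Slc6a6 (Entrez 21366; GRCm38 chr6:91684048-91759063) encodes the carrier of taurine and beta-alanine, and it fell from a high level. The 2i/LIF libraries held 363 and 352 CPM at 0 h, 345 and 338 at 12 h, 220 and 215 at 24 h, and 172 and 170 at 40 h. The serum/LIF+2i libraries held 304 and 326 CPM, then 317 and 321, 158 and 151, and 162 and 152. At 12 h the change was not called in either medium (-0.07 ± 0.04 with a 95% interval of -0.15 to 0.01 in 2i/LIF, and 0.02 ± 0.04 with -0.06 to 0.10 in serum/LIF+2i). The fall came between 12 and 24 h, at -0.65 ± 0.04 for 2i/LIF and -1.05 ± 0.04 for serum/LIF+2i (adjusted p = 1.75e-27 and 7.12e-46). It went on to 40 h in 2i/LIF (-0.35 ± 0.05), while the step in serum/LIF+2i was 0.02 ± 0.04 and not called. By 40 h the net changes were -1.06 ± 0.04 in 2i/LIF (a 2.09-fold fall) and -1.01 ± 0.04 in serum/LIF+2i (2.01-fold). The responses thus differed at 24 h (-0.32 ± 0.06, adjusted p = 1.88e-05) and gave 0.06 ± 0.06 at 40 h (adjusted p = 0.55). The medium difference was -0.18 ± 0.04 at 0 h and -0.50 ± 0.04 at 24 h. At 12 h it was -0.10 ± 0.04 and missed the threshold (adjusted p = 0.0552), which it passed without ribosomal RNA genes (adjusted p = 0.0258), with only the compared groups fitted (0.0335) and without any 1 of 5 libraries of other times. At 40 h, -0.13 ± 0.04 was called (adjusted p = 0.0268) but lost with library size as the only scaling (adjusted p = 0.101), with DESeq2 (0.135), without the first 2i/LIF library of that time (adjusted p = 0.12) and without the second of serum/LIF+2i (-0.08, adjusted p = 0.303).

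Slc6a9 (Entrez 14664; GRCm38 chr4:117835258-117869305) encodes the glycine carrier GlyT1, and its time course was late in 2i/LIF and earlier in serum/LIF+2i, as for Slc1a4. The 2i/LIF libraries held 10.2 and 10.3 CPM at 0 h, 12.6 and 11.6 at 12 h, 17.5 and 19.8 at 24 h, and 53.0 and 59.4 at 40 h. The serum/LIF+2i libraries held 7.49 and 12.2 CPM, then 12.7 and 16.1, 44.0 and 44.9, and 81.8 and 83.9. The 2 libraries of serum/LIF+2i at 0 h enclosed both 0 h libraries of 2i/LIF. At 12 h the nearest libraries of the media were at 12.6 and 12.7 CPM and the difference, 0.27 ± 0.15, was not called (adjusted p = 0.181), while at 24 and 40 h serum/LIF+2i lay above 2i/LIF. From 0 to 40 h the gene rose 5.46-fold in 2i/LIF (log2 2.45 ± 0.13, adjusted p = 1.62e-36) and 8.40-fold in serum/LIF+2i (log2 3.07 ± 0.11, adjusted p = 1.5e-50). At 24 h the values were 0.86 ± 0.16 and 2.17 ± 0.13, and the medium difference reached 1.26 ± 0.11 there (adjusted p = 6.01e-19), falling to 0.56 ± 0.07 at 40 h. The responses differed by 1.32 ± 0.22 at 24 h (adjusted p = 8.13e-07). Their difference at 40 h, 0.62 ± 0.20 (adjusted p = 0.0138), moved with those 0 h libraries: it was 0.30 without serum/LIF+2i replicate 1 at 0 h (adjusted p = 0.345) and 1.01 without replicate 2. That call was also lost with DESeq2 (adjusted p = 0.0504), without either 2i/LIF library at 0 h (0.62 and 0.60, adjusted p = 0.0611 and 0.0849) and without 2i/LIF replicate 1 at 40 h (0.53, adjusted p = 0.055). The early rise in serum/LIF+2i, 0.57 ± 0.16 at 12 h (adjusted p = 0.00196), likewise became 0.27 without replicate 1 at 0 h (adjusted p = 0.248), 0.38 without replicate 2 at 12 h (adjusted p = 0.129) and 0.96 without replicate 2 at 0 h.

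Slc6a9 overlaps B4galt2 and Ccdc24 on the other strand, and the strand setting of the authors' counting is not given in the sources used here, so reads in the overlap may have been shared. B4galt2, a galactosyltransferase gene, rose as well, from 3.51 ± 0.88 to 21.2 ± 2.37 CPM (SD, n = 2) in 2i/LIF cells and from 4.19 ± 1.14 to 22.4 ± 0.806 CPM with serum/LIF+2i. Its log2 fold changes at 40 h were 2.61 ± 0.21 and 2.42 ± 0.18, and the difference between the media in its response was -0.25 ± 0.35 at 24 h (adjusted p = 0.676). Ccdc24 stayed at or below 1.90 CPM in every library. Their part in the counts of Slc6a9 was not tested. RefSeq gives Slc6a9 3 starts, and none of the 3 windows held the motif found in Slc1a4. The stretches, each from 120 bases before a start to 30 after it on the plus strand, are shown because the deposited counts sum over all starts and cannot say which was used: chr4:117835138-117835287, chr4:117849230-117849379 and chr4:117855427-117855576, in this order.
Slc6a9 first start: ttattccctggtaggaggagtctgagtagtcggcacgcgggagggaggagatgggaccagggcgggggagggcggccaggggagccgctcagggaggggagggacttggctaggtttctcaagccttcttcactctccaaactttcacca
Slc6a9 second start: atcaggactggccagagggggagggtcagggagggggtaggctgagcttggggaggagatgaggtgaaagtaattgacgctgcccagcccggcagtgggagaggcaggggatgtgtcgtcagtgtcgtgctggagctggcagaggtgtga
Slc6a9 last start: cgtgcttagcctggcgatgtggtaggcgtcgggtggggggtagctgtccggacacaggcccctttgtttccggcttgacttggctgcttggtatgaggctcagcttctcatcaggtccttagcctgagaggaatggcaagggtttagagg

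Slc6a15 (Entrez 103098; GRCm38 chr10:103367808-103419379) encodes a carrier of branched-chain amino acids and proline, and it was the member with a peak. The 2i/LIF libraries held 10.9 and 9.11 CPM at 0 h, 25.6 and 27.7 at 12 h, 16.4 and 12.8 at 24 h, and 8.64 and 8.29 at 40 h. The serum/LIF+2i libraries held 17.0 and 16.9 CPM, then 38.7 and 33.1, 11.3 and 12.3, and 7.41 and 7.35. In both media the 12 h libraries lay above those of every other time. It rose by 1.42 ± 0.15 on the log2 scale within 12 h in 2i/LIF cells and by 1.07 ± 0.12 in serum/LIF+2i cells (adjusted p = 4.54e-15 and 7.52e-14). It then fell by 1.59 ± 0.12 from 12 to 24 h in serum/LIF+2i, to below its level at 0 h (-0.52 ± 0.15 at 24 h, adjusted p = 0.00109, and -1.20 ± 0.16 at 40 h, adjusted p = 1.87e-11). In 2i/LIF the same step was -0.86 ± 0.13, and the gene was still above 0 h at 24 h, by 0.56 ± 0.17 (adjusted p = 0.00329). That call was lost without replicate 1 at 24 h (0.37, adjusted p = 0.145) and without replicate 2 at 0 h (0.44, adjusted p = 0.0743). At 40 h in 2i/LIF the change was -0.23 ± 0.19 with a 95% interval of -0.60 to 0.15, and was not called (adjusted p = 0.279). The responses of the media differed by -1.08 ± 0.22 at 24 h and -0.97 ± 0.25 at 40 h (adjusted p = 7.85e-05 and 0.00113). Serum/LIF+2i was higher at 0 h (0.77 ± 0.17, adjusted p = 8.12e-05) and at 12 h (0.42 ± 0.11, adjusted p = 0.00106, but 0.31 and adjusted p = 0.061 without its replicate 1 at 12 h), and its values at 24 and 40 h were not called (-0.31 ± 0.15 and -0.20 ± 0.18). Without 2i/LIF replicate 2 at 24 h, the former was -0.46 (adjusted p = 0.0479).

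**Figure D2:**
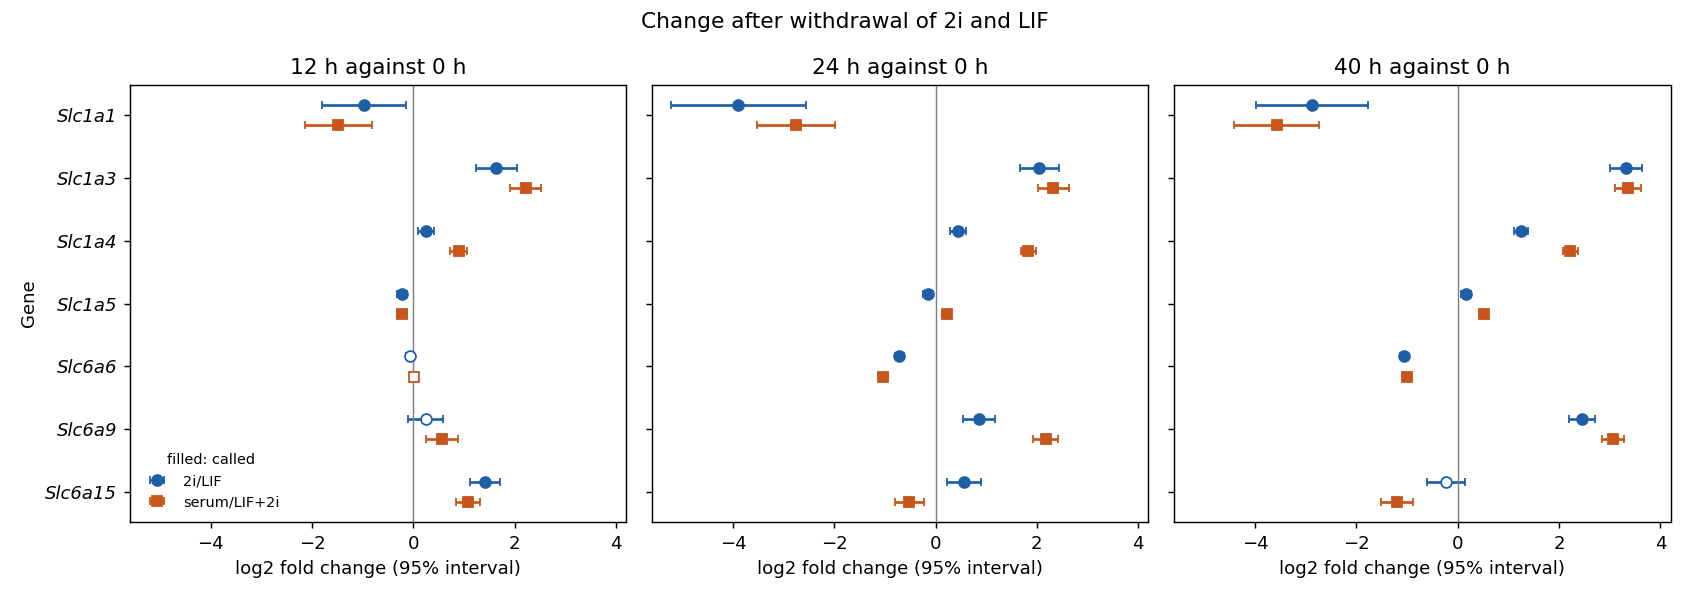
Fitted log2 fold change of 7 members at 12, 24 and 40 h against 0 h in 2i/LIF (blue circles) and serum/LIF+2i (red squares), with 95% intervals; filled points were called at an adjusted p under 0.05, and Slc1a2 is left out because its fitted values depend on the prior count. Slc1a3 stands at 3.32 and 3.35 at 40 h, and Slc1a4 and Slc6a9 lie further right in serum/LIF+2i than in 2i/LIF at 24 and 40 h.

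The steps between times place these changes. From 12 to 24 h in 2i/LIF 6 of the 7 members other than Slc1a2 were called, against 35.1% of all genes, and from 24 to 40 h again 6 of 7, against 46.7%. In serum/LIF+2i 6 and then 5 of the 7 were called, against 48.4% and 50.5% of all genes. In 2i/LIF the later step raised Slc1a3, Slc1a4, Slc1a5 and Slc6a9, and lowered Slc6a6 and Slc6a15. In serum/LIF+2i the later step raised Slc1a3, Slc1a4, Slc1a5 and Slc6a9 as well and lowered Slc6a15. The step of Slc1a1 from 12 to 24 h in serum/LIF+2i, -1.27 ± 0.47 (adjusted p = 0.0201), was lost without replicate 2 at 12 h (-0.83, adjusted p = 0.318), without either 24 h library (adjusted p = 0.052 and 0.119) and with DESeq2 (adjusted p = 0.106). Its next step was -0.83 ± 0.62 and not called, and became -2.28 (adjusted p = 0.0421) without replicate 2 at 40 h.

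Between the media, 4 of these 7 members were called at 0 h and 2 at 12 h, and 5 were called both at 24 and at 40 h. The background shares were 33%, 30.3%, 31.1% and 27.3%. At 0 h, before withdrawal, Slc1a1 and Slc6a15 were higher in serum/LIF+2i, and Slc1a4 and Slc6a6 were lower. The value for Slc1a1 at 0 h, 0.83 ± 0.32 (adjusted p = 0.0391), was lost without replicate 1 of 2i/LIF (0.40, adjusted p = 0.466), without replicate 1 of serum/LIF+2i (0.49, adjusted p = 0.404) and with DESeq2 (adjusted p = 0.27), and was 1.57 without replicate 2 of 2i/LIF. At 12 h only Slc1a3 and Slc6a15 were called, Slc1a3 by 0.98 ± 0.13 (adjusted p = 9.87e-11). At 24 and 40 h Slc1a3, Slc1a4, Slc1a5 and Slc6a9 were higher in serum/LIF+2i and Slc6a6 lower. Slc1a3 differed by 0.68 ± 0.12 at 24 h and 0.43 ± 0.08 at 40 h, while its fold change from 0 h did not differ between media at the threshold (interaction 0.58 ± 0.29 at 12 h, adjusted p = 0.238, and 0.03 ± 0.28 at 40 h, 95% interval -0.52 to 0.58). The difference between the responses was called for 1 member at 12 h, 5 at 24 h and 4 at 40 h, against 9.2%, 20.8% and 27.6% of all genes. These comparisons share their 0 h libraries within a medium.

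**Figure D3:**
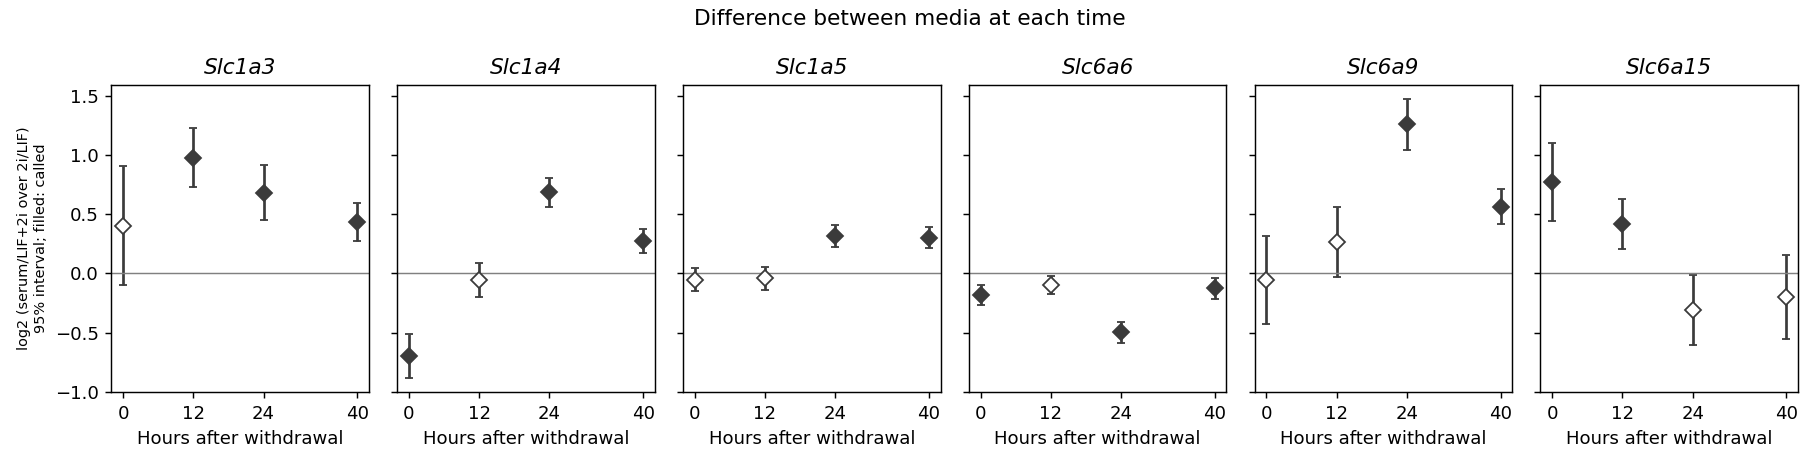
Log2 ratio of serum/LIF+2i over 2i/LIF for 6 members at each time, with 95% intervals; filled diamonds were called. Slc1a4 moves from -0.70 at 0 h to 0.68 at 24 h, and Slc6a9 peaks at 1.26 at 24 h, while Slc6a6 stays below 0 at all 4 times.

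To set the genes against each other, counts were divided by the deposited gene length as well (RPKM). On this scale Slc1a5 was the most abundant of the 8 in every group, with 40.9% to 51.6% of their summed RPKM. At 0 h Slc6a6 came next, at 58.0 ± 1.30 RPKM (SD, n = 2) with 2i/LIF and 51.1 ± 2.51 with serum/LIF+2i, followed by Slc1a4 at 12.8 ± 0.23 and 7.86 ± 0.42. The share of Slc6a6 then went from 38.2% ± 0.484 to 16.3% ± 1.26 in 2i/LIF and from 36.4% ± 0.342 to 12.4% ± 0.348 in serum/LIF+2i between 0 and 40 h. Slc1a4 passed it, by 24 h in serum/LIF+2i (27.9 ± 1.46 against 25.0 ± 0.890 RPKM) and by 40 h in 2i/LIF (30.4 ± 1.99 against 27.7 ± 0.285 RPKM), with no overlap between libraries of these pairs. This crossing depends on the deposited lengths, 3926 bases for Slc1a4 and 6169 for Slc6a6. Whether they match the transcripts present was not tested, and in CPM Slc6a6 stayed above Slc1a4 in every group. At 40 h in serum/LIF+2i Slc6a6 and Slc6a9 overlapped, at 25.4 ± 1.13 and 25.3 ± 0.457 RPKM. Slc6a9 went from 2.06% of the sum at 0 h to 10.1% at 40 h in 2i/LIF cells, and from 2.13% to 12.4% in serum/LIF+2i cells. The bottom of the order was also mixed: Slc1a1 and Slc1a3 overlapped at 0 h in both media, Slc1a3 and Slc6a15 at 24 h in 2i/LIF, and Slc1a1 and Slc1a2 at 40 h in both media. The sum over the 8 genes was 151.8 ± 1.48 RPKM at 0 h and 170.3 ± 11.4 at 40 h for 2i/LIF cells, and 140.3 ± 5.58 and 204.6 ± 3.35 for serum/LIF+2i cells.

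**Figure D4:**
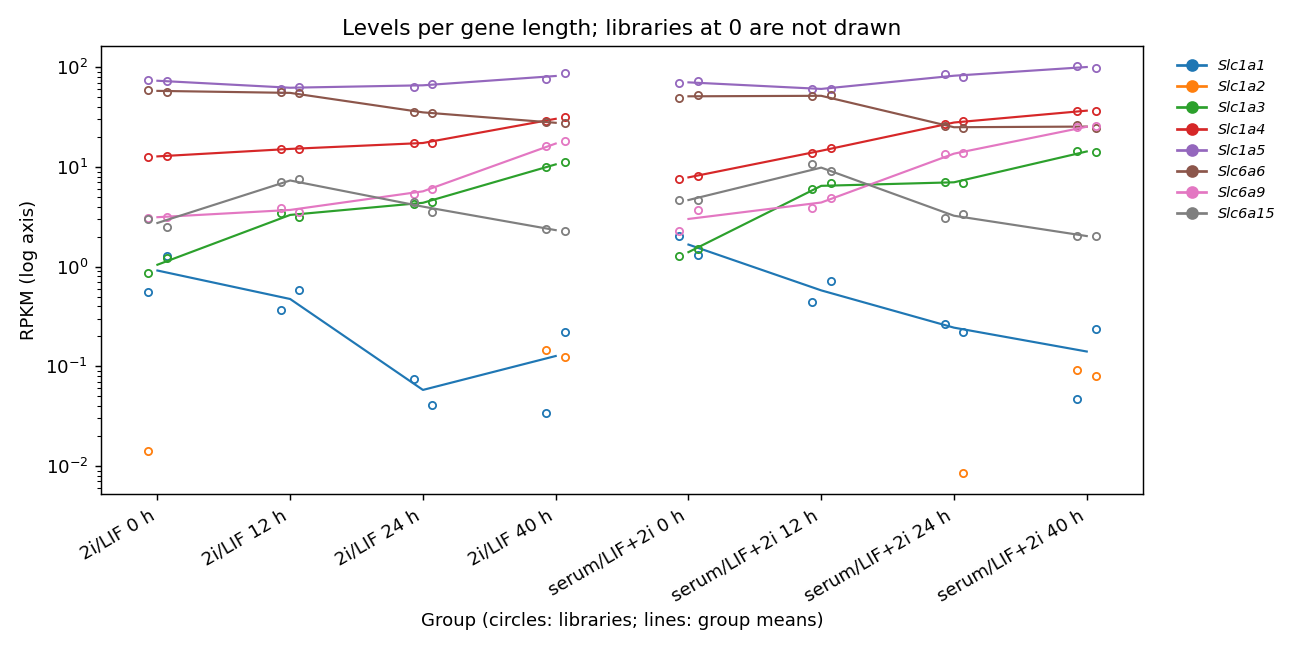
RPKM of the 8 members on a log axis by group; circles are libraries, lines join group means within a medium, libraries at 0 are not drawn and Slc1a2 has no line. Slc1a5 is on top throughout, and the line of Slc1a4 crosses that of Slc6a6 between 24 and 40 h in 2i/LIF and between 12 and 24 h in serum/LIF+2i.

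The rest of both families was mostly silent. Of 18 other SLC1 and SLC6 genes, 3 passed the filter on low counts, and all 3 were lower at 40 h in both media. The background shares of genes called lower at that time were 34.7% (2i/LIF) and 35.3% (serum/LIF+2i). With only 3 genes, this count is not read as particular to the families. Slc6a8, the creatine carrier, fell from 228 ± 0.538 to 47.0 ± 0.150 CPM in 2i/LIF cells and from 168 ± 7.21 to 40.8 ± 0.396 CPM with serum/LIF+2i. Slc6a7, a proline carrier, fell from 24.8 ± 3.46 to 0.193 ± 0.081 CPM and from 13.8 ± 1.46 to 0.140 ± 0.076 CPM.

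Among the 7 subunit genes of the sodium pump, which sets up the gradient these carriers use, 2 were higher and 4 lower at 40 h in 2i/LIF cells, against 3 and 3 in serum/LIF+2i cells. That is 6 of 7 called in each medium, beside 68.8% and 70.5% of all genes. The beta subunit gene Atp1b1 fell from 381 ± 4.95 to 51.6 ± 2.19 CPM in 2i/LIF cells and from 294 ± 15.9 to 37.4 ± 1.71 CPM with serum/LIF+2i. Atp1a4, known from sperm, was at 0 in all 4 libraries of 0 h, was highest at 24 h with 6.68 ± 0.222 and 6.46 ± 0.526 CPM and was at 1.24 ± 0.021 and 1.30 ± 0.603 CPM at 40 h.

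Enzymes that use the substrates of these carriers are set against the same background, in which higher and lower genes were about equal in number. Of 10 genes for glutamate, aspartate and glutamine enzymes, 5 were higher and 5 lower at 40 h in 2i/LIF cells, and 5 and 4 in serum/LIF+2i cells. Asns, which makes asparagine from aspartate and glutamine, fell by 1.39 ± 0.04 and 1.49 ± 0.04 on the log2 scale, and Gss, the second enzyme of glutathione synthesis, by 2.73 ± 0.07 and 2.29 ± 0.07. Gclm and Gclc, the subunits of the first enzyme of that pathway, rose by 1.17 ± 0.06 and 1.01 ± 0.06, and by 0.63 ± 0.05 and 0.57 ± 0.05, in 2i/LIF and serum/LIF+2i. Of 10 genes for glycine and serine enzymes, 5 were higher and 5 lower in each medium. Tdh, which starts the breakdown of threonine to glycine, fell from 836 ± 7.13 to 76.1 ± 5.84 CPM in 2i/LIF cells and from 763 ± 25.7 to 41.7 ± 2.64 CPM with serum/LIF+2i, while the glycine carrier Slc6a9 rose. Parts of the glycine cleavage system moved apart, with Gldc higher by 1.36 ± 0.04 and 1.14 ± 0.04 and Amt lower by 1.39 ± 0.06 and 1.78 ± 0.06 (log2 fold changes -1.39 and -1.78). Psat1, of serine synthesis, rose by 0.85 ± 0.04 and 0.84 ± 0.04. Of 5 genes for taurine synthesis 3 were tested: Cdo1, which starts it from cysteine, fell from 61.1 ± 0.541 to 4.41 ± 0.667 CPM in 2i/LIF cells and from 28.9 ± 2.07 to 3.78 ± 0.013 CPM with serum/LIF+2i, beside the fall of the taurine carrier Slc6a6. Ado rose by 0.35 ± 0.08 and 0.41 ± 0.08, and Csad was not called at 40 h (0.00 ± 0.11 and 0.08 ± 0.11).

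Several SLC genes are known targets of ATF4, so 10 genes of the amino acid response were set beside the members. At 40 h 9 were higher and 1 lower in 2i/LIF, and all 10 were higher in serum/LIF+2i, with median log2 fold changes of 1.12 and 2.42. Of all genes 34.1% and 35.3% were higher in these comparisons. At 24 h the list was higher in serum/LIF+2i than in 2i/LIF for 10 of 10 genes (median 1.51), and the difference between the responses was called for 9 of 10, where 31.1% and 20.8% of all genes were called. Chac1, which degrades glutathione, differed between responses by 1.94 ± 0.21 at 24 h, Trib3 by 2.09 ± 0.11, Atf4 itself by 0.66 ± 0.06 and Sesn2, an inhibitor of mTORC1, by 0.62 ± 0.07. Slc1a4 and Slc6a9 had values of 1.38 and 1.32 in that comparison, and Slc1a5 had 0.37. Slc6a15 and Slc6a6 went the other way, at -1.08 and -0.32, and Slc1a1 and Slc1a3 were not called (1.14 and 0.28). From 24 to 40 h in 2i/LIF 10 of the 10 response genes were called, 9 of them higher (median 1.16), and from 12 to 24 h in serum/LIF+2i all 10 were higher (median 1.57), where 46.7% and 48.4% of all genes were called in either direction. The motif of the Slc1a4 start was present in the windows of 4 of these 10 genes (Atf3, Trib3, Chac1 and Nupr1), and also in those of Asns, which fell, and Got1. Whether ATF4 acts on any member was not tested.

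**Figure D5:**
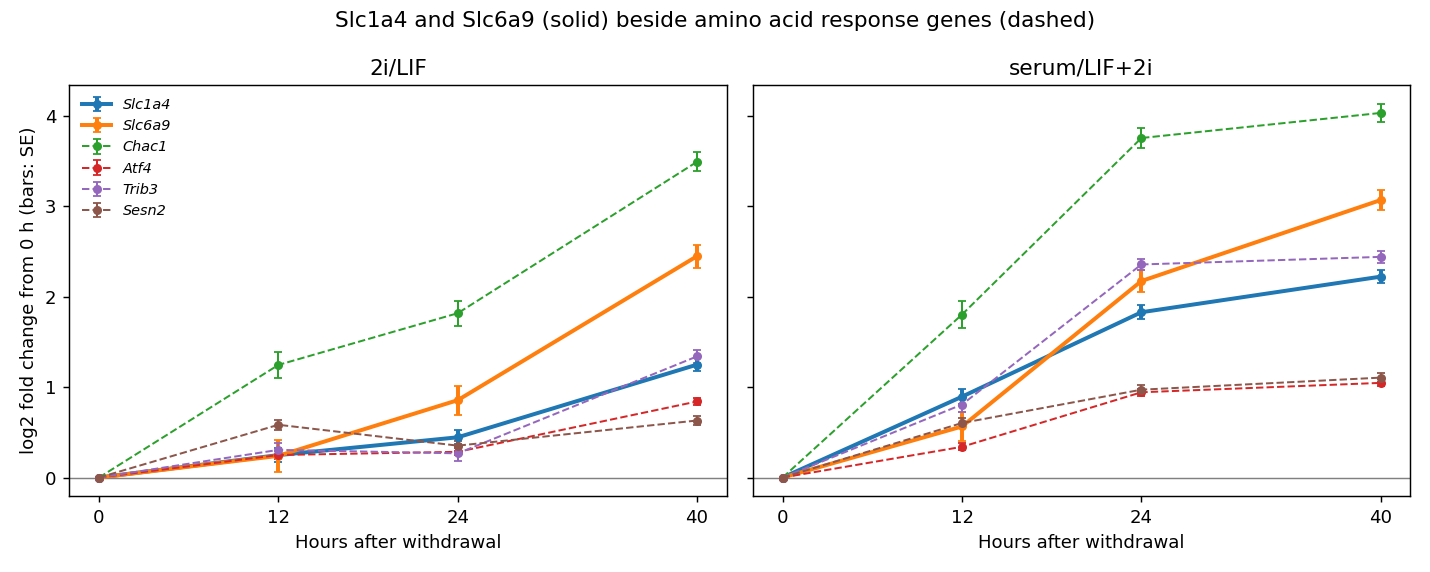
Fitted log2 fold change from 0 h (bars, SE) of Slc1a4 and Slc6a9 (solid) and of the amino acid response genes Chac1, Atf4, Trib3 and Sesn2 (dashed) against hours after withdrawal, for 2i/LIF (left) and serum/LIF+2i (right). At 24 h Slc1a4 stands at 0.45 on the left and 1.83 on the right, Slc6a9 at 0.86 and 2.17, and the response genes likewise stand higher on the right. The other members are not drawn.

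Over the 8 group means of log2 CPM, Slc1a4 and Slc6a9 had a Pearson's r of 0.95 with each other, and Slc6a6 ran opposite to both, at -0.88 and -0.94. Slc1a3 had an r of 0.88 with Slc1a4 and 0.88 with Slc6a9. Slc1a5 and Slc6a15 stood at -0.87. All genes share these libraries and the order of times, so high values are common and carry no test. The pair of genes nearest to each member in pattern was taken from 3883 others that averaged at least 5 CPM and ranged over at least 1 log2 unit. Rnf219 (r = 0.9914) and Stc2 (0.9891) were nearest to Slc1a4, and Slc20a2 (0.9947), a phosphate carrier, and Fzd3 (0.9945), a Wnt receptor, to Slc6a9. Carhsp1 (0.9946) and Cacng7 (0.9909) were nearest to Slc1a3, and Coa4 (0.9959) and Srd5a3 (0.9803) to Slc1a1. For Slc1a2 the rule gave Dyrk2 (0.9779) and Stx7 (0.9735). The group means of Slc1a2 before 40 h lay at the floor, so its r reflects only higher values at 40 h and shows no shared time course. Necab2 (0.9838) and Zfp612 (0.9778) were nearest to Slc1a5, Gm14322 (0.9956) and Tnfrsf21 (0.9889) to Slc6a6, and Dcaf12l1 (0.9810) and B3galnt1 (0.9791) to Slc6a15. With the 16 libraries in place of the group means, only 1 gene of the pair stayed for every member except Slc1a1, which kept both. The genes that came in were Iffo2 for Slc1a2, Snap47 for Slc1a3, Atf4 for Slc1a4 and Cryzl1 for Slc1a5. For Slc6a6, Slc6a9 and Slc6a15 they were B4galnt4, Mthfd2 and Ppcs. The nearest genes thus depended on this choice.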

How the data were processed

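The authors deposited 1 table of whole-number counts per gene for all 16 libraries, with Entrez identifier, symbol and gene length, per the file headers. Per the submitters' processing notes, fastp, STAR, featureCounts and the build mm10 were used. Versions and the strand setting are not given in the sources used here. Per the labels' protocols, RNA came from TRIzol extraction and a stranded poly(A) kit. Groups and replicate numbers came from the sample titles, and 0 value columns were set aside.

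In R 4.3.3, edgeR 4.0.16 kept 14288 genes (filterByExpr, minimum count 10, minimum total 15), scaled library sizes by TMM and fitted 1 model with a term per group to all 16 libraries (8 residual degrees of freedom). The test was the two-sided quasi-likelihood F test with robust estimation in 17 comparisons, with Benjamini-Hochberg adjustment over all tested genes. SE was derived from the F statistic, and intervals are 95%. CPM and RPKM use TMM-scaled totals, and log2 CPM for correlations used a prior count of 2. The common biological coefficient of variation was 3.19%. Replicates differed by more than sampling noise in every group (chi-square per degree of freedom 1.41 to 5.62). Counting intervals and the floor of 3 counts cover counting error only. The code was tested on simulated data.

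Promoter sequences are RefSeq's, overlaps of genes come from GENCODE, and both use GRCm38, the assembly also called mm10. Slc1a1, Slc1a2, Slc1a3, Slc6a6 and Slc6a9 overlap other GENCODE genes, so their counts are uncertain where counting split reads. All 8 members, the 6 gene lists with 60 genes and the marker lists were chosen with earlier results of these data known. Every member is named. From each list the 4 genes with the smallest adjusted p (the larger of both 40 h comparisons with 0 h) are named, and for each member the 2 genes of highest correlation. Some genes that this rule names are not reported here. Alternatives were DESeq2 1.42.0, its size factors used in edgeR, no scaling beyond library size, no filter, no ribosomal RNA genes, only the compared groups, a replicate block, and leaving out each library.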

Additional observations from a re-analysis of the deposited data

Results flagged for a closer look

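In 10 results the change from 0 h was not the same in both media. It was tested directly on the difference (edgeR, log2 fold change in serum/LIF+2i minus that in 2i/LIF, adjusted over all genes). In serum/LIF+2i this change also includes the removal of serum and the move to another base medium. The difference is therefore not one in the response to withdrawal of 2i and LIF alone. Slc1a4 responded more in serum/LIF+2i at 12, 24 and 40 h, by 0.65, 1.38 and 0.97. Slc1a5 did so at 24 and 40 h, by 0.37 and 0.35, and Slc6a9 by 1.32 and 0.62. The last was lost with DESeq2 and without any 1 of 4 libraries, as given above, and was lowest, at 0.30, without serum/LIF+2i replicate 1 at 0 h. Slc6a15 had the lower response in serum/LIF+2i, at -1.08 and -0.97, and Slc6a6 at 24 h, at -0.32. Slc6a6 no longer differed at the threshold at 40 h. With 2 libraries a group, no group was large enough for a check of single libraries that stand apart.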

How the results depend on the processing

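Across 23 alternatives, 2823 of 2875 values of single members kept direction and side of the threshold. None of the other 52 changed direction with a call, and 110 of 125 results never changed. These totals, and the numbers of members called that follow, include Slc1a2 in comparisons with its 40 h libraries. Slc1a2 passed the filter through those libraries, so its unchanged calls there are not read as a test of its rise. The number of members called moved by over 1.5 times in 1 comparison, the media at 12 h, where leaving out 1 library in turn gave 1 to 3 against 2. DESeq2 lost 7 calls, and DESeq2 size factors within edgeR lost none. DESeq2 also called fewer of all genes in every comparison. It called 8746 against 9837 by edgeR for 2i/LIF at 40 h from 0 h, and 2010 against 3897 for the media at 40 h. The background shares given are those of edgeR. With the replicate number as a replicate block, 0 of 125 results changed, and 7 members were called at 24 h in serum/LIF+2i as without it. Deviations of same-numbered libraries correlated at -0.02 to 0.03 over 28 pairs of groups, so no deviation shared by the same number was seen. This cannot say whether same-numbered libraries came from 1 culture. Low counts limit Slc1a1 after 12 h and Slc1a2 before 40 h.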
